A study of Mus musculus with 6 samples.

Results

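The transcriptome described here is that of cultured mouse lung-resident fibroblasts that received a control siRNA, read from 3 of the 6 RNA-sequencing libraries of the series. The libraries were chosen by their treatment label alone, and all 14870 genes of the table were kept. The cells came from CCSP-rtTA and TGFα bitransgenic mice, in which a club cell promoter drives the doxycycline-dependent activator, so that the airway epithelium makes the growth factor TGFα while doxycycline is fed. The mice had been on doxycycline for 10 days, and the study used mice of both sexes aged 10 to 16 weeks. Primary cells were grown in serum-containing medium for 1 to 5 passages and were transfected with a negative control siRNA for 72 h. All 3 libraries carry the same transgenes and the same treatment, and cells of mice without TGFα and cells without siRNA were not analysed here, so the values are levels in one state and not effects of TGFα or of transfection. The labels do not say whether the 3 replicates were separate mice or separate cultures. The spread between them may therefore be technical.

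Fibroblasts are the cells that make most of the interstitial matrix of the lung. They secrete collagen chains, which are hydroxylated and folded in the endoplasmic reticulum, assembled outside the cell and crosslinked by lysyl oxidases. In lung fibrosis such cells can take on a myofibroblast form, in which actin stress fibers that contain smooth muscle actin are added to a high output of matrix. TGFα is a ligand of the EGF receptor.

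Levels were given as RPKM, the reads of a gene divided by its length and by the number of reads counted in the library. The whole reads behind each value were recovered, and the libraries held 30441954, 29350227 and 29679307 reads on genes of the table in replicates 1, 2 and 3. At this depth, 1 RPKM of a gene of 1 kilobase stood for 29.4 to 30.4 reads. A gene was called detected at 1 RPKM or more in each of the 3 libraries. This held for 11286 of 14870 genes (75.9%). Of the genes, 5472 reached 10 RPKM in each library, 576 reached 100 RPKM and 26 reached 1000 RPKM. The median of the detected genes was 10.1 RPKM. The level was concentrated in few genes, since 440 genes held 50% of the summed RPKM and 4744 held 90%. The 10 most abundant genes held 8.95% ± 0.274 (SD, n = 3) of the summed RPKM and the 100 most abundant held 28.6% ± 0.677. Protein-coding genes took 97.3% of the summed RPKM. A gene was counted as differing between libraries when its highest library was 1.5-fold or more above its lowest. This held for 326 of the 11286 detected genes (2.89%), the share against which counts of list members past 1.5-fold are to be read. Over all detected genes replicates 1, 2 and 3 were the highest library in 28.8%, 38.2% and 33.0%. They were the lowest in 38.6%, 30.6% and 30.8%. Counts of list members by library are to be read against these shares. The table held 0 mitochondrially encoded genes, so the mitochondrial share could not be used to read RNA quality.

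**Figure D1:**
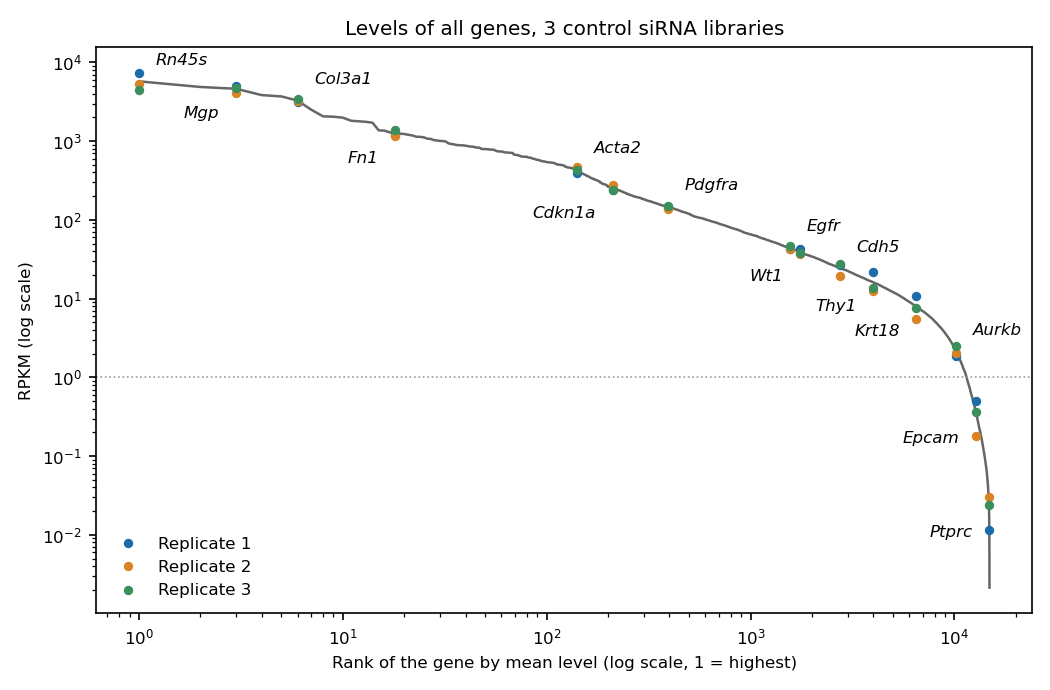
Mean RPKM of each gene (line, log scale) against its rank by mean level (log scale), with the values of 15 named genes in replicates 1, 2 and 3 as points and 1 RPKM as a dotted line. Col3a1 stood at rank 6 and Mgp at rank 3, Acta2 at rank 141 and Wt1 at rank 1742, while Epcam and Ptprc lay below the dotted line in each library.

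The most abundant transcript was Rn45s, the precursor of the ribosomal RNAs, at 7385, 5389 and 4449 RPKM in replicates 1, 2 and 3. Replicate 1 was the highest and replicate 3 the lowest, 1.66-fold apart, and the share of all counted reads on this gene was 4.31%, 3.14% and 2.60%. Among protein-coding genes Ftl1, the light chain of ferritin, came first at 4775, 5168 and 4674 RPKM. Mgp, a small vitamin K-dependent matrix protein that inhibits calcification, followed at 5005, 4129 and 4722 RPKM. The ranges of Ftl1 and Mgp overlapped, so their order was not separated by the spread between libraries. Eef1a1, a translation elongation factor, came next at 3890.2, 3841 and 3790.3 RPKM, and Sparc, a collagen-binding matrix protein, at 3418, 3900.0 and 3764 RPKM. These 2 overlapped as well, while Col3a1, the chain of type III collagen, lay below Eef1a1 in each library at 3145, 3200.1 and 3472 RPKM.

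The next places held proteins of the cytoskeleton, the matrix and the ribosome. Tmsb4x, an actin-sequestering peptide, had 2214, 2756 and 2554 RPKM, and Tpt1, a protein of growth and translation control, had 2214, 2026 and 1947 RPKM. Col1a2, the second chain of type I collagen, had 1892, 2016 and 2218 RPKM, Lgals1 (galectin-1) 2087, 2057 and 1816 RPKM and Bgn (biglycan, a small proteoglycan) 1777, 1778 and 1884 RPKM. All 25 most abundant genes had a mean of 1115 RPKM or more, and 22 of them were among the 25 most abundant in each library separately. Besides those named, the 25 included Rpl41 at a mean of 1711, Rplp1 at 1369.8, Serping1 at 1359.5, Mt1 at 1293, Mt2 at 1232, S100a6 at 1246, S100a11 at 1178, Fth1 at 1135, Actb at 1203, Actg1 at 1115 and Vim at 1133 RPKM. Serping1 encodes the inhibitor of the first complement component, Mt1 and Mt2 encode metallothioneins, and the S100 genes encode calcium-binding proteins. Of the 100 most abundant genes, 44 encoded ribosomal proteins and 9 encoded collagens, matrix glycoproteins or proteoglycans.

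A microRNA entry stood at rank 12. Mir6236, listed with a length of 123 bases, had 2211, 1679 and 1459.8 RPKM, which came from 8280, 6061 and 5330 reads. A second such entry, Mir6240, had 672, 487 and 443 RPKM. Both followed Rn45s across the libraries, since the ratio of Mir6236 to Rn45s was 0.299, 0.311 and 0.328 and that of Mir6240 to Rn45s was 0.0910, 0.0904 and 0.0996 in replicates 1, 2 and 3. Lars2, a mitochondrial leucyl-tRNA synthetase gene, did the same, at 1052, 781 and 724 RPKM and ratios of 0.142, 0.145 and 0.163. Whether reads of ribosomal RNA were counted on these entries was not tested. Standard RNA libraries do not retain most mature microRNAs, and levels of the mature forms cannot be read from these entries. The mature sequences that RefSeq (GRCm38.p6) gives for the pair are shown to identify the entries, with the seed (bases 2 to 8) in capitals. Their seeds differ.
mmu-miR-6236 (chr9:110281353-110281371, plus strand): gCCGUCGCcggcagucagg
mmu-miR-6240 (chr5:114851973-114851998, plus strand): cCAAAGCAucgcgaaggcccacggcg

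The 5 genes that mark lung fibroblasts were all detected in each library, at widely different levels. Col3a1 and Col1a1 were among the 13 most abundant genes. Col1a1, the first chain of type I collagen, had 1549, 1699.6 and 2025 RPKM, with replicate 3 the highest. Acta2, the smooth muscle actin of myofibroblasts, had 398, 473 and 432 RPKM (434 ± 37.3, SD, n = 3) and rank 141. Pdgfra, the receptor for platelet-derived growth factor that marks resident fibroblasts, had 146, 139 and 152 RPKM. Thy1, a surface glycoprotein, was far lower at 22.0, 12.7 and 13.7 RPKM, and replicate 1 stood 1.73-fold above the lowest. Of the 19 genes of the wider fibroblast list, 17 were detected and 10 reached 100 RPKM in each library. Dcn (decorin) had 1292, 871 and 926 RPKM, Lum (lumican) 106, 63.8 and 74.5 RPKM and Mfap5, a microfibril protein, 177, 209.8 and 203 RPKM. Genes known from subsets of lung fibroblasts differed widely in level. Npnt, a basement membrane protein gene of alveolar fibroblasts, had 56.7, 68.3 and 65.6 RPKM and Tcf21, a transcription factor of the lung mesenchyme, had 15.4, 14.2 and 16.6 RPKM. Markers of adventitial fibroblasts were uneven, with Mfap5 as given, Dpt at 4.48, 5.43 and 3.79 RPKM and Pi16 at 1.11, 0.501 and 0.750 RPKM. Ces1d was below 1 RPKM at 0.802, 0.676 and 0.737 RPKM.

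**Figure D2:**
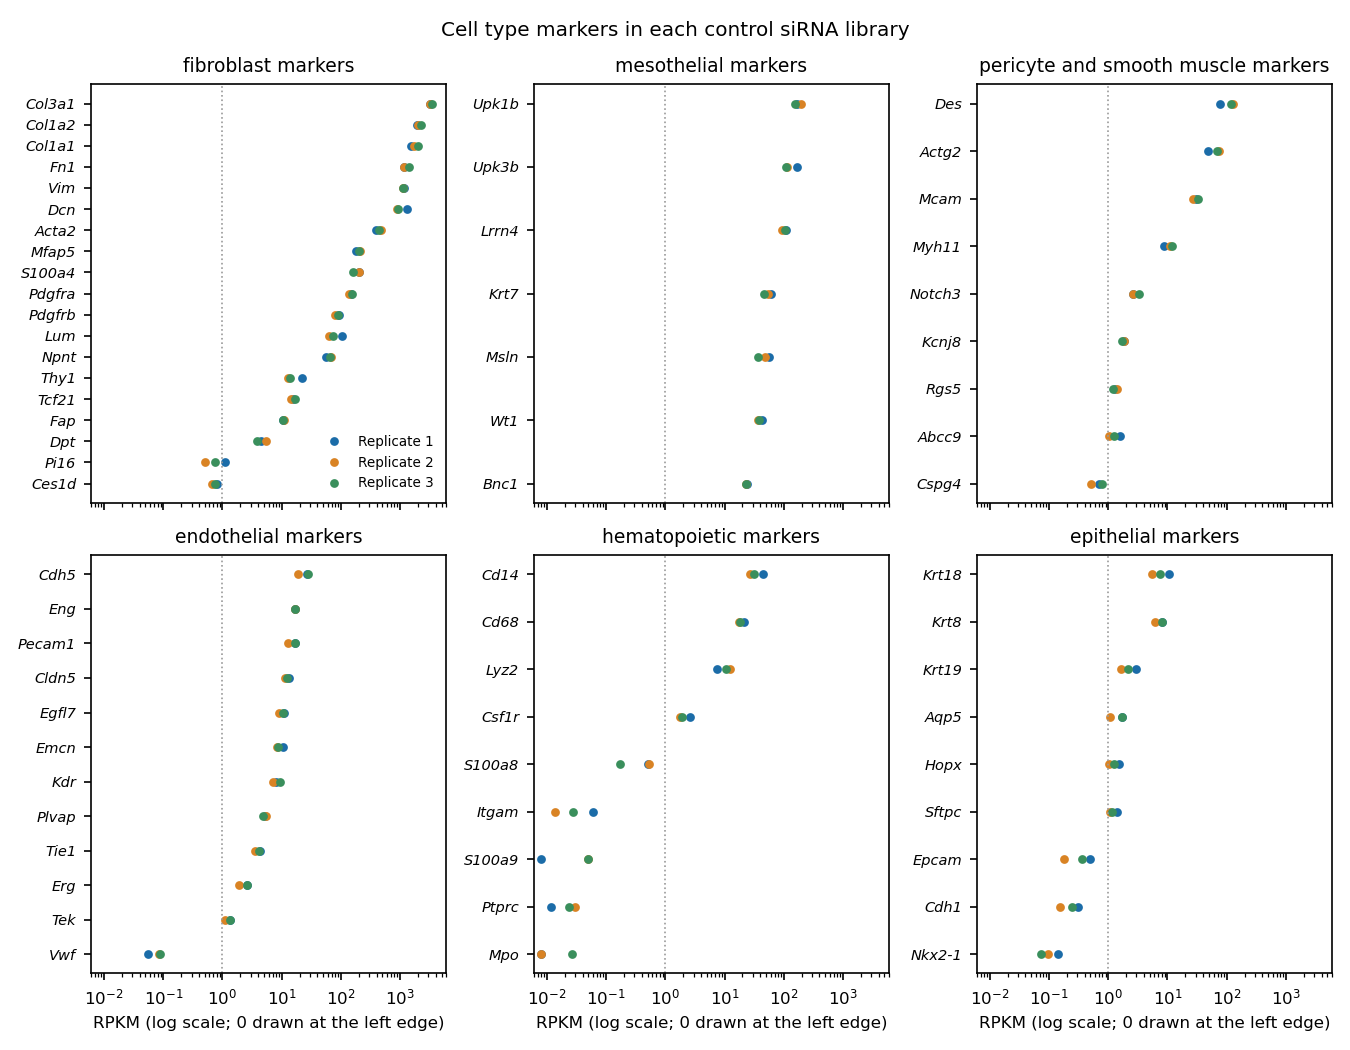
RPKM (log scale) of the members of 6 lists of cell type markers in replicates 1, 2 and 3, 1 gene per line, with 1 RPKM as a dotted line. All 7 mesothelial markers of the table lay between 22.7 RPKM (Bnc1) and 198 RPKM (Upk1b), whereas Ptprc, Itgam, Epcam, Cdh1, Nkx2-1 and Vwf lay below 1 RPKM in each library.

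Among the lists of other cell types, the mesothelial one was the only list with every measured member at 10 RPKM or more. Mesothelium is the cell layer that covers the lung and lines the pleural cavity. Of its 8 listed markers 7 had values. All 7 were detected and reached 10 RPKM in each library, with a median of 53.7 RPKM against 10.1 RPKM for all detected genes. Upk1b, a uroplakin, had 166, 198 and 157 RPKM and Upk3b, another uroplakin, had 164, 113 and 111 RPKM. Lrrn4, a leucine-rich repeat gene of mesothelium, had 109, 92.8 and 104 RPKM. Of these 3 genes Upk1b lay above Pdgfra in each library, the range of Upk3b overlapped that of Pdgfra, and Lrrn4 lay below it, while all 3 lay above Thy1. Krt7 had 60.1, 54.8 and 46.3 RPKM, Msln (mesothelin) 57.2, 48.4 and 36.2 RPKM and Bnc1, a zinc finger factor, 24.2, 22.7 and 23.3 RPKM. Wt1, a transcription factor of mesothelium that is also found in fibroblasts of fibrotic lung, had 42.9, 36.4 and 38.1 RPKM (39.2 ± 3.37, SD, n = 3). Summed over the list, the level was 0.160%, 0.144% and 0.136% of all RPKM, highest in replicate 1. In bulk RNA, a small number of cells with a high level and a large number with a low level cannot be told apart, and the same holds for every marker given here.

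Endothelial markers were low but present throughout. Of 12 genes, 11 were detected, 4 of them at 10 RPKM or more. Cdh5, the cadherin of endothelial junctions, had 26.4, 19.1 and 27.5 RPKM, Pecam1 16.7, 12.7 and 16.9 RPKM, Cldn5, a tight junction claudin, 13.2, 11.3 and 12.3 RPKM and Kdr, a receptor for VEGF, 8.08, 7.11 and 9.35 RPKM. Vwf, which encodes von Willebrand factor, was the exception at 0.0558, 0.0848 and 0.0877 RPKM. The list was lowest in replicate 2, where 9 of the 11 detected members had their lowest value, against 30.6% of all detected genes. Its summed share was 0.0298, 0.0246 and 0.0304% of all RPKM.

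Markers of blood cells were uneven. Of 14 listed genes 9 had values, of which 4 were detected and 5 lay below 1 RPKM in each library. Cd14, a receptor for bacterial lipopolysaccharide, had 44.8, 26.6 and 31.4 RPKM, Cd68, a lysosomal membrane protein, 21.1, 17.5 and 18.5 RPKM, and Lyz2, a lysozyme, 7.49, 12.4 and 10.6 RPKM. Csf1r had 2.65, 1.78 and 1.88 RPKM. Ptprc, which encodes the pan-leukocyte antigen CD45, rested on 2, 5 and 4 reads (0.0116, 0.0301 and 0.0238 RPKM), and Itgam, an integrin of myeloid cells, on 9, 2 and 4 reads. Ccr2, a monocyte chemokine receptor, and Ngp, a neutrophil granule gene, were among the 5 genes of the table with 0 reads in all 3 libraries. Taken alone, 0 reads in a library allow an expected count of up to 3 at 95% confidence, by counting error only. Over the 3 libraries together the limit in each is lower. Adgre1, C1qa, Cd3e and Cd79a were not analysed here.

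Of 13 listed epithelial genes 9 had values. Of these 9, 6 were detected and none reached 10 RPKM in each library. Scgb1a1, Sftpb, Sftpa1 and Foxj1 were not analysed here. Krt18 and Krt8, keratins that some mesenchymal cells also make, had 10.7, 5.55 and 7.51 RPKM and 7.97, 6.06 and 8.06 RPKM. The surfactant gene Sftpc had 1.39, 1.06 and 1.17 RPKM. Epcam had 0.494, 0.182 and 0.360 RPKM, Cdh1 (E-cadherin) 0.311, 0.154 and 0.243 RPKM and Nkx2-1, a transcription factor of lung epithelium, 0.141, 0.0943 and 0.0725 RPKM. Replicate 2 was the lowest in each of the 6 detected members, and 4 of the 6 differed by 1.5-fold or more between the highest and the lowest library. This compares with 2.89% of all detected genes and 10.7% in the lowest decile of detected genes by level. Of the 4, Krt19, Aqp5 and Hopx rested on means of 95, 70 and 67 reads, and Krt18 on 332.

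Of 10 listed pericyte and smooth muscle markers 9 had values and 8 were detected, and 3 reached 10 RPKM in each library. Des (desmin) had 78.2, 130.3 and 118 RPKM, Actg2, an enteric smooth muscle actin, 48.0, 75.1 and 68.0 RPKM, Mcam, a surface protein of pericytes and endothelium, 30.8, 27.0 and 32.2 RPKM and Myh11, the smooth muscle myosin heavy chain, 8.81, 11.034 and 11.7 RPKM. The other pericyte genes were lower, since Rgs5, Kcnj8 and Abcc9 had means of 1.31, 1.82 and 1.29 RPKM, Notch3 had 2.61, 2.61 and 3.32 RPKM, and Cspg4 had 0.690, 0.504 and 0.770 RPKM. Of the 7 listed adipocyte genes 4 had values. Plin2, a lipid droplet protein, had 104, 104 and 100.5 RPKM, Lpl (lipoprotein lipase) 89.4, 68.1 and 70.6 RPKM and Fabp4 87.0, 63.2 and 63.4 RPKM. Pparg, the transcription factor that defines adipocytes, had 0.653, 0.664 and 0.558 RPKM. Of the 9 listed cartilage and bone genes 3 had values. Alpl had 1.79, 1.90 and 2.19 RPKM, with Runx2 at 1.24, 1.43 and 1.30 RPKM and Sox9 at 0.412, 0.378 and 0.366 RPKM. Of the neural list, Mbp (myelin basic protein) was the only one of the 4 members with values to lie above 10 RPKM, at 16.1, 11.8 and 12.5 RPKM.

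Fibrillar collagens took 2.14% ± 0.214 (SD, n = 3) of the summed RPKM. The percentages were 1.96, 2.08 and 2.38 in replicates 1, 2 and 3, highest in replicate 3 and lowest in replicate 1. Within the list there was a wide gap between 5 abundant chains and the rest. Of the single chains Col3a1 was ahead of Col1a1, with a ratio of 2.03, 1.88 and 1.71. This ratio does not rank type III collagen against type I, which has Col1a2 as a further chain. The chains of type I were nearly equal, with a ratio of Col1a1 to Col1a2 of 0.819, 0.843 and 0.913, although the protein is built from them unequally, with more of the first chain. Type V collagen, which regulates the diameter of the fibrils, was unequal. Its chain Col5a2 had 909, 1140.3 and 1149 RPKM and Col5a1 had 108, 117 and 131 RPKM, a ratio of 8.38, 9.76 and 8.77. Col11a1 had 5.46, 6.88 and 7.78 RPKM and Col5a3 5.45, 3.73 and 3.91 RPKM. Of the 7 detected fibrillar chains, 6 were highest in replicate 3 and 6 were lowest in replicate 1, but none differed by 1.5-fold or more between libraries.

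The other collagens were led by the basement membrane. Col4a1 had 461, 503 and 539 RPKM and Col4a2 295, 322 and 344 RPKM. These neighbours, transcribed from a shared promoter in opposite directions, kept a ratio of 1.56, 1.56 and 1.57 in the 3 libraries. Col8a1, a short-chain network collagen, had 81.3, 77.9 and 71.959 RPKM and Col4a5 62.9, 63.7 and 66.7 RPKM. Col12a1 and Col14a1, which bind to the surface of fibrils, had 55.1, 57.9 and 59.0 RPKM and 47.9, 40.7 and 52.0 RPKM. The type VI microfibril chains were unequal. Col6a1 had 62.4, 59.1 and 68.2 RPKM and Col6a2 44.3, 41.4 and 48.4 RPKM, while Col6a3 had 9.16, 8.96 and 10.3 RPKM, 6.81, 6.60 and 6.61 times lower than Col6a1. Of 29 such genes, 17 were detected and 12 were below 1 RPKM in each library, among them Col4a3, Col4a4, Col7a1, Col10a1 and Col17a1.

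The modifying and crosslinking enzymes of collagen were abundant as a group. Of 23 genes, 22 were detected and 20 reached 10 RPKM, with a median of 69.5 RPKM. Lox (lysyl oxidase) led with 673, 855 and 852 RPKM and was lowest in replicate 1, and its relatives Loxl2 and Loxl1 had 228, 273 and 277 RPKM and 161, 177 and 180.3 RPKM. P4hb, a subunit of prolyl hydroxylase and a disulfide isomerase, had 658, 675 and 666 RPKM, and Serpinh1, the collagen chaperone, had 446, 464 and 478 RPKM. Plod2, a lysyl hydroxylase that acts on the ends of the chains, had 212, 267 and 266 RPKM. P3h2, a prolyl 3-hydroxylase, was the member below 1 RPKM, at 0.146, 0.212 and 0.105 RPKM, while its relative P3h1 had 26.0, 25.9 and 25.9 RPKM. Replicate 1 was the lowest library for 15 of the 22 detected members, against 38.6% of all detected genes. None of the 22 reached 1.5-fold between libraries.

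**Figure D3:**
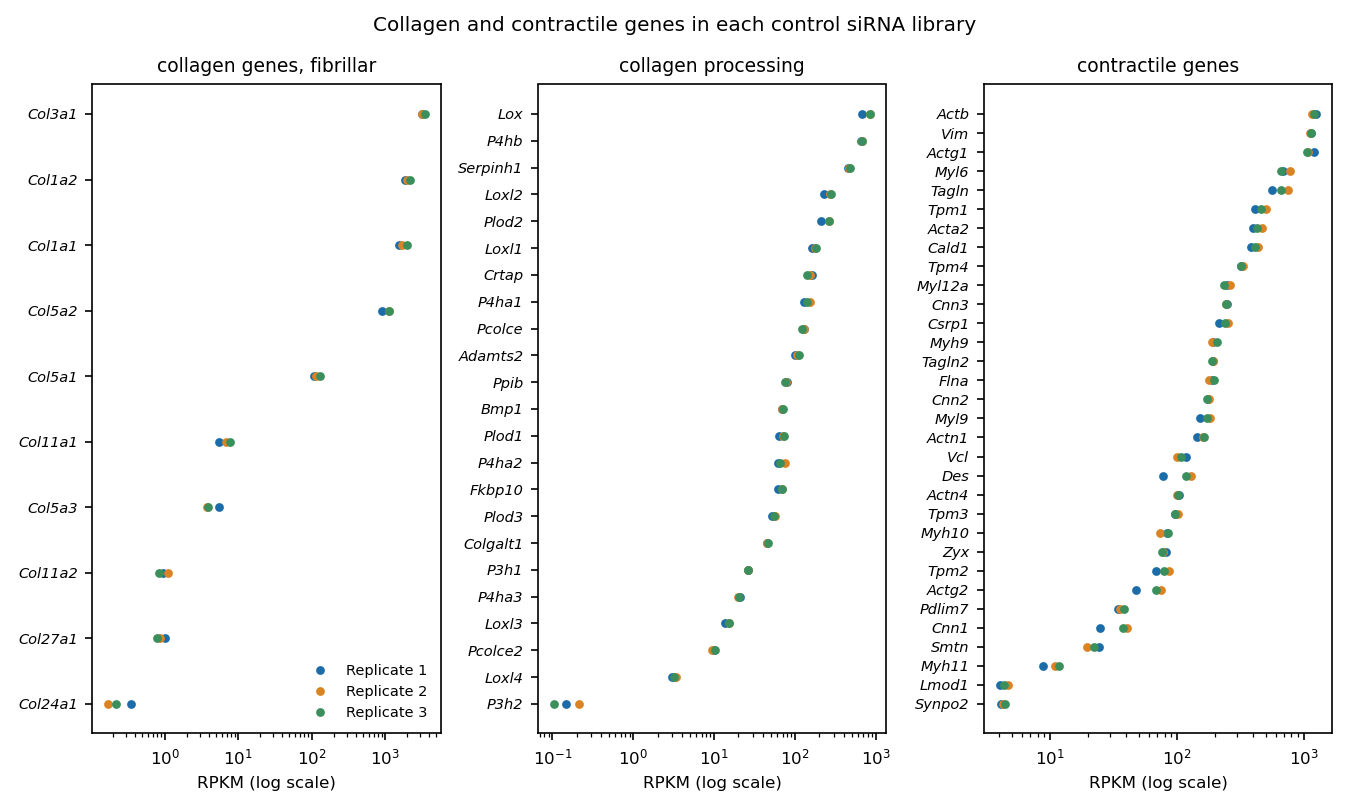
RPKM (log scale) of the fibrillar collagens, the collagen-processing genes and the contractile genes in replicates 1, 2 and 3, 1 gene per line. The 3 points of most genes lie close together, whereas Des, Actg2 and Cnn1 are separated, with replicate 1 below replicates 2 and 3.

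Among matrix glycoproteins and proteoglycans, 44 of 45 genes were detected and 16 reached 100 RPKM in each library. After Sparc and Bgn came Fn1 (fibronectin) at 1179.8, 1167 and 1399 RPKM, then Dcn, given above, and Fbln2, a fibulin, at 781, 923 and 893 RPKM. Thbs1 (thrombospondin-1) had 356, 404 and 373 RPKM and Igfbp7 503, 518 and 471 RPKM. Ctgf and Cyr61, matrix proteins of the CCN family and targets of YAP, had 198, 181 and 164 RPKM and 109, 96.1 and 89.3 RPKM. Postn (periostin), a matrix protein of injured tissue, had 151, 156 and 106 RPKM. Of the elastic fiber genes, Fbn1 (fibrillin-1) had 139, 138 and 163 RPKM and Eln (elastin) 78.8, 56.3 and 86.3 RPKM. Vcan (versican) and Tgfbi were low, at 3.10, 3.36 and 3.71 RPKM and 2.71, 1.77 and 2.0002 RPKM.

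The list of matrix proteases and inhibitors held lysosomal cathepsins, metalloproteases and their inhibitors at high levels. Timp3, Timp2 and Timp1 had 589, 633 and 676 RPKM, 672, 582 and 535 RPKM and 435, 500.4 and 454 RPKM. Timp2 and Timp3 changed places between libraries, since Timp2 was higher in replicate 1 and Timp3 in replicates 2 and 3. Mmp14, a membrane protease that activates Mmp2, had 345, 330.3 and 338 RPKM and Mmp2 (gelatinase A) 242, 232 and 248 RPKM. The lysosomal cathepsins Ctsd, Ctsb and Ctsl led the list with means of 1020.3, 747 and 741 RPKM. Mmp8, known as the collagenase of neutrophils, had 110.4, 152 and 136 RPKM, while Mmp13, the other mouse interstitial collagenase, had 4.80, 3.63 and 3.83 RPKM. Plau (urokinase), an activator of plasminogen, had 51.6, 24.0 and 25.8 RPKM, 2.15-fold higher in replicate 1 than in the lowest library, the only member of this list past 1.5-fold.

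Contractile genes were all detected, 20 of 32 at 100 RPKM or more in each library. The cytoplasmic actins Actb and Actg1 had 1253, 1156 and 1201 RPKM and 1198, 1082 and 1065 RPKM, and Vim (vimentin), the intermediate filament of mesenchymal cells, had 1139, 1123 and 1137 RPKM with a CV between libraries of 0.742%. The CV, the SD as a percentage of the mean, of Acta2 was 8.59%. Tagln (transgelin), an actin-binding protein of smooth muscle, had 558, 748 and 663 RPKM and Tpm1 (tropomyosin) 412, 508 and 459.9 RPKM. Myl6, a myosin light chain, had 686, 773 and 664 RPKM and Cald1 (caldesmon) 386, 438 and 415 RPKM. Cnn1 (calponin) had 24.9, 40.2 and 37.4 RPKM. Des, Actg2 and Cnn1 were the 3 members past 1.5-fold, and in each of them replicate 1 was the lowest. Actg2 stood 8.30, 6.29 and 6.35 times below Acta2.

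Reads of actin genes are hard to assign, because actins have many processed pseudogenes and near-identical coding sequences, so the split between Actb, Actg1, Acta2 and Actg2 is uncertain. The promoter of Actg1 is shown because it holds a CArG box, the word bound by serum response factor, which drives many contractile genes. Among the 32 contractile genes, 28 had a promoter window in the table used here (RefSeq, GRCm38.p6, 250 bases before to 50 bases after the start), and 4 of the 28 windows (14.3%) held a CArG box, those of Actg1, Cnn2, Myl9 and Vcl. Of all 32851 mouse windows 1.63% held one, and of those of detected genes 1.26%. The word is its own reverse complement as a class, so both strands were covered. Only words of CC, then A or T bases alone, then GG were counted. A window without one may therefore still hold a variant box. In the window of Actg1 (chr11:120348446-120348745, minus strand, written 5′ to 3′ on the strand of the gene) the box is in capitals and begins 90 bases before the start.
Actg1: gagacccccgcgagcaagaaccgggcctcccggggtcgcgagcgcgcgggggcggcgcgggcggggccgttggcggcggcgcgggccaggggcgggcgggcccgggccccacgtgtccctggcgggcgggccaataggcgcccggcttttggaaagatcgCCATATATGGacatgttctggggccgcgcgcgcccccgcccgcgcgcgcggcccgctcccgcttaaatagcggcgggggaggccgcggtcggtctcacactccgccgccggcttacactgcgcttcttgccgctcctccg

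Integrins, the receptors that tie the cell to its matrix, were dominated by a pair of beta chains. Itgb1 had 444, 523 and 522 RPKM and Itgb5 174, 206 and 198 RPKM. The alpha chains were lower, led by Itga8, a partner of Itgb1 in mesenchymal cells, at 44.8, 52.6 and 58.8 RPKM, Itga5, the fibronectin receptor chain, at 32.7, 34.1 and 36.6 RPKM, Itgav at 28.9, 29.2 and 32.0 RPKM and Itga2 at 25.034, 29.5 and 30.8 RPKM. The collagen receptor chain Itga11 had 6.28, 5.64 and 5.93 RPKM. Itgb6, the epithelial partner of Itgav, had 0.158, 0.0985 and 0.0974 RPKM, and the leukocyte chain Itgb7 had 0.0860, 0.127 and 0.0630 RPKM.

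The EGF receptor system, which receives TGFα, was represented by 1 main receptor. Egfr had 42.3, 42.7 and 46.9 RPKM (44.0 ± 2.55, SD, n = 3), at rank 1555. Erbb2, the coreceptor without a ligand of its own, had 5.47, 5.28 and 5.38 RPKM, 7.73, 8.10 and 8.72 times lower, and Erbb3 had 0.114, 0.153 and 0.260 RPKM from 14, 18 and 31 reads. Ligand genes were low. Ereg (epiregulin) had 2.62, 2.74 and 2.31 RPKM, Hbegf 2.19, 2.67 and 2.51 RPKM, Nrg1 (neuregulin-1) 2.44, 1.60 and 2.40 RPKM and Btc (betacellulin) 1.0963, 1.33 and 1.17 RPKM. Tgfa itself had 1.56, 0.637 and 1.04 RPKM, below 1 RPKM in replicate 2 and so not called detected, from 216, 85 and 141 reads, and Egf had 0.117, 0.213 and 0.197 RPKM. The adaptors and the sheddase of the pathway were higher than its ligands. Shc1 had 70.1, 69.6 and 72.039 RPKM, Grb2 28.9, 30.5 and 28.2 RPKM and Adam17, the protease that frees TGFα from the membrane, 21.4, 20.6 and 21.1 RPKM. Errfi1, a feedback inhibitor of the receptor, had 11.2, 10.8 and 10.3 RPKM. Areg, Epgn and Erbb4 were not analysed here.

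Other growth factor systems were present with both receptors and ligands. Pdgfrb had 94.4, 78.7 and 90.6 RPKM, below Pdgfra in each library, with ratios to it of 0.648, 0.567 and 0.596. The ligands Pdgfa, Pdgfc and Pdgfd had means of 16.9, 10.1 and 10.996 RPKM. Fgfr1 had 59.1, 60.5 and 59.6 RPKM, Fgfr2 had 7.70, 4.74 and 5.90 RPKM, Fgfr3 had 0.629, 0.660 and 0.560 RPKM, and Fgf2 had 46.9, 52.6 and 52.6 RPKM. Fgf10 and Fgf7, mesenchymal factors for lung epithelium, had 11.1, 14.4 and 13.1 RPKM and 7.94, 11.4 and 9.15 RPKM. The insulin-like growth factor system had its highest levels in the binding proteins. Igfbp3 had 605, 675 and 731 RPKM, Igfbp4 220.4, 186 and 234 RPKM and Igfbp6 118, 117 and 113 RPKM, while Igf1 had 63.9, 79.2 and 89.3 RPKM and its receptor Igf1r 7.61, 7.99 and 8.53 RPKM. Igfbp2 was an exception in spread, with 115, 63.5 and 48.1 RPKM. Vegfd, listed as Figf, had 130.3, 134 and 139.7 RPKM and Vegfa 32.1, 41.5 and 35.6 RPKM. Csf1, a macrophage growth factor, had 133, 142 and 121 RPKM.

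The TGFβ and BMP system had 35 of 36 members detected. Its most abundant member was Fstl1, a secreted glycoprotein that binds BMPs, at 390.3, 489 and 488 RPKM. Id3, an inhibitor of bHLH factors that BMP signals induce, had 311, 308 and 309 RPKM with a CV of 0.474%, and Id1 had 39.3, 30.4 and 32.8 RPKM. The receptors were unequal: Tgfbr2 had 138, 146 and 151 RPKM and Tgfbr1 9.41, 10.6 and 10.4 RPKM, a ratio of 14.6, 13.8 and 14.4. Among the TGFβ ligands Tgfb3 was the highest, at 60.5, 64.1 and 64.3 RPKM, followed by Tgfb1 at 24.962, 25.3 and 26.0 RPKM and Tgfb2 at 19.8, 20.007 and 22.3 RPKM, and the 3 did not overlap. Grem1, a BMP antagonist, had 49.5, 86.5 and 58.5 RPKM and was the only member past 1.5-fold between libraries, with replicate 2 the highest. The ligand Bmp4 had 34.2, 32.3 and 32.0 RPKM, above Tgfb1 in each library, and the type I BMP receptor Bmpr1a 66.8, 68.1 and 71.6 RPKM.

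In the WNT, hedgehog and Notch systems, the most abundant secreted inhibitors were higher than any ligand of the list. Sfrp1 had 219.9, 269 and 271 RPKM and Dkk3 113, 106 and 106 RPKM, while the highest WNT ligand, Wnt5a, had 17.5, 20.9 and 22.4 RPKM. Ctnnb1 (β-catenin) had 241, 206 and 221 RPKM. Axin2, a target of canonical WNT signals, had 5.64, 3.07 and 3.90 RPKM. The WNT receptors Fzd1, Fzd2 and Fzd7 had means of 49.9, 23.5 and 22.6 RPKM. Of the hedgehog genes, Smo had 34.6, 32.7 and 34.4 RPKM, and of its targets Ptch1 had 2.82, 2.62 and 3.13 RPKM, Gli1 0.0538, 0.0837 and 0.0736 RPKM and Hhip 0.0217, 0.0375 and 0.0668 RPKM. Among Notch receptors Notch2 was the highest at 12.3, 11.4 and 13.3 RPKM.

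Transcription factors of the list were led by Osr1, a zinc finger factor of embryonic lung mesoderm and fibroblast progenitors, at 157, 98.8 and 103 RPKM. It was 1.59-fold higher in replicate 1 than in the lowest library, the only member past 1.5-fold. Atf4, a factor of the stress response, had 83.0, 87.8 and 85.7 RPKM. Yap1, a factor that responds to stiffness, had 52.7, 53.0 and 53.6 RPKM, its relative Wwtr1 (TAZ) 34.1, 35.3 and 36.0 RPKM and their DNA-binding partner Tead1 35.5, 35.6 and 39.0 RPKM. Hif1a, Nfe2l2 and Sox4 had means of 52.9, 51.6 and 49.5 RPKM. Factors of lung mesenchyme were lower. Tbx4 had 21.6, 24.7 and 26.1 RPKM, Tbx2 13.9, 16.3 and 17.0 RPKM, Tbx5 6.58, 8.12 and 8.27 RPKM, Foxf1 9.62, 11.028 and 10.9 RPKM, Prrx1 25.4, 27.5 and 28.5 RPKM and Gata6 38.0, 29.0 and 34.2 RPKM. Of the factors linked to mesenchymal transition, Zeb2 and Zeb1 had 24.7, 25.7 and 27.3 RPKM and 13.4, 14.4 and 15.4 RPKM, Snai1 12.5, 13.5 and 13.8 RPKM and Twist1 10.0, 7.02 and 7.63 RPKM. Srf and its coactivator Mkl1 had 11.7, 9.62 and 10.8 RPKM and 14.7, 14.5 and 14.9 RPKM. Foxm1, a factor of mitosis, had 2.15, 1.95 and 2.15 RPKM.

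The Hox genes, which encode position along the body axis, showed a pattern by cluster and by paralog group. Of 39 listed genes 23 had values, and 15 were detected, all from the A and B clusters except Hoxc4. Hoxa5, needed for lung development in the mouse, was the highest at 34.6, 38.9 and 35.3 RPKM and lay above all others in each library. Hoxb4 followed at 10.9, 13.3 and 11.6 RPKM, Hoxb5 at 8.37, 11.1 and 10.9 RPKM, Hoxb2 at 9.38, 9.89 and 9.58 RPKM, Hoxb3 at 7.80, 8.95 and 8.75 RPKM and Hoxb6 at 6.71, 9.92 and 8.72 RPKM. The ranges of Hoxb4 and Hoxb5 overlapped, as did those of Hoxb3 and Hoxb6, whereas Hoxb2 lay above Hoxb3 without overlap. Hoxb8 had 2.09, 2.51 and 1.9997 RPKM and Hoxb9 0.195, 0.139 and 0.0999 RPKM, so that in the B cluster the level was lower at groups 8 and 9 than at groups 2 to 6. Hoxc6 lay near 1 RPKM in replicate 1, at 1.01, 0.621 and 0.571 RPKM, and Hoxd8 and Hoxd9 lay below it in each library. Replicate 2 was the highest library for 10 of the 15 detected members.

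Of the cytokine list 4 genes reached 100 RPKM in each library and 7 were below 1 RPKM in each. Mif, an inflammatory mediator, had 395, 468 and 410.1 RPKM, Il6st, the shared receptor chain of the IL-6 family, 204, 233 and 258 RPKM, and Cxcl14, a chemokine, 176, 282 and 259 RPKM. Vcam1, an adhesion molecule for leukocytes, had 104, 90.7 and 104 RPKM and Il33, an alarm cytokine, 33.6, 27.4 and 30.3 RPKM. Il6 had 8.22, 6.72 and 7.21 RPKM and Lif 3.70, 4.27 and 3.44 RPKM. The monocyte chemokines Ccl2, Ccl7 and Ccl8 were each highest in replicate 1. Ccl2 had 67.8, 30.6 and 30.2 RPKM, Ccl7 27.6, 17.5 and 13.6 RPKM and Ccl8 8.81, 4.67 and 3.43 RPKM. The neutrophil chemokines Cxcl1 and Cxcl5 had 0.623, 0.144 and 0.284 RPKM and 0.0793, 0.0823 and 0.0814 RPKM. Of 32 genes 23 were detected, and 6 of these 23 differed by 1.5-fold or more between libraries, against 2.89% of all detected genes.

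Of the 16 complement genes 10 reached 10 RPKM in each library. After Serping1, at 1367, 1342 and 1369 RPKM, came C3, the central component, at 365, 186 and 224 RPKM. The proteases of the classical pathway had 212, 137 and 141 RPKM (C1s1), 155, 106 and 109 RPKM (C2) and 43.2, 32.1 and 31.0 RPKM (C1ra), and C4b, the fourth component, had 57.9, 40.1 and 55.9 RPKM. Cfi, a protease that inactivates C3b, had 39.5, 26.5 and 31.9 RPKM. Serping1 was steady, with a CV of 1.12%, but C3 was 1.96-fold higher in replicate 1 than in replicate 2. Of 13 detected members 10 were highest in replicate 1 and 9 were lowest in replicate 2. Of the 13, 3 reached 1.5-fold, against 2.89% of all detected genes. Hc, the gene of C5, had 0.0422, 0.0813 and 0.0680 RPKM, and the chains of C1q were not analysed here.

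Interferon-stimulated genes were led by those of antigen presentation and membrane defence. B2m, the light chain of MHC class I, had 619, 561 and 477 RPKM, and the heavy chains H2-D1 and H2-K1 had 159, 153 and 133 RPKM and 109, 91.4 and 81.8 RPKM, with the caution that class I genes are closely alike. Ifitm3, which blocks entry of viruses, had 329, 353 and 295 RPKM, and Bst2 had 149.7, 144 and 111 RPKM. Genes that respond sharply to interferon were lower. Ifit1 had 11.1, 14.993 and 11.2 RPKM, Isg15 20.5, 30.3 and 20.3 RPKM, Irf7 7.59, 9.36 and 7.10 RPKM and Rsad2 0.425, 0.405 and 0.223 RPKM. Replicate 3 was the lowest library for 23 of 27 detected members, against 30.8% of all detected genes, although none of the 27 reached 1.5-fold.

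Mitotic genes were at a low level 72 h after transfection with the control siRNA. All 35 genes of the list had values, 33 were detected, and none reached 10 RPKM in each library. Their median was 2.96 RPKM. Ube2c, which loads ubiquitin on mitotic cyclins, had 7.23, 7.35 and 7.78 RPKM, Top2a 6.08, 5.86 and 7.86 RPKM, Cdk1 5.14, 5.46 and 5.85 RPKM and Ccnb1 (cyclin B1) 4.30, 4.46 and 4.95 RPKM. Mki67, the gene of the Ki-67 antigen, had 2.57, 2.22 and 3.22 RPKM, and Aurkb, the kinase that the siRNA of the series targets in the libraries not used here, had 1.86, 2.03 and 2.50 RPKM from 111, 117 and 146 reads. Its partners Incenp, Cdca8 and Birc5 had 4.42, 3.93 and 4.42 RPKM, 3.53, 4.15 and 4.66 RPKM and 1.18, 1.27 and 1.27 RPKM. Replicate 3 was the highest for 31 of the 33 detected members. The difference was small for each gene, and 1 of them reached 1.5-fold. Replication genes had a median of 3.30 RPKM, and 3 reached 10 RPKM, Mcm7 at 11.2, 10.9 and 11.5 RPKM, Pcna at 45.4, 43.5 and 44.0 RPKM and Rrm1, a subunit of ribonucleotide reductase, at 41.6, 36.5 and 36.7 RPKM. Mcm2 had 4.91, 4.78 and 5.32 RPKM and Cdc6 0.447, 0.391 and 0.545 RPKM.

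The list of cell cycle inhibitors and senescence genes had a median of 28.7 RPKM, against 2.96 RPKM for the mitotic genes. Cdkn1a, the p21 inhibitor and a target of p53, had 239, 274 and 241 RPKM (251 ± 19.6, SD, n = 3), at rank 211. Cdkn2b and Cdkn2a, inhibitors linked to senescence, had 36.3, 31.8 and 24.7 RPKM and 22.3, 22.2 and 15.955 RPKM, both lowest in replicate 3. Cdkn1b had 26.6, 29.6 and 30.0 RPKM. Mdm2 and Gadd45a, other p53 targets, had 49.7, 48.0 and 42.5 RPKM and 47.5, 58.6 and 53.2 RPKM. On the side of entry into the cycle, Cdk4 had 133, 120.2 and 119 RPKM and Ccnd2 116, 123 and 129.7 RPKM, while Ccnd1 had 11.7, 11.5 and 9.92 RPKM. Among regulators of apoptosis, Bax, which permeabilises mitochondria, had 93.8, 91.1 and 79.3 RPKM, and Mcl1 and Bcl2l1, which oppose it, had 65.4, 63.7 and 61.3 RPKM and 28.6, 25.6 and 22.9 RPKM. Bcl2 had 2.24, 2.02 and 2.47 RPKM. Bak1 and Bcl2l2 had 28.5, 29.5 and 30.7 RPKM and 27.5, 29.6 and 28.4 RPKM. The death receptor gene Fas had 14.7, 15.5 and 13.1 RPKM. None of the 25 detected members of the apoptosis list and none of the 16 of the cycle inhibitor list reached 1.5-fold between libraries. Since 2.89% of all detected genes did so, lists of this size do not differ from that background.

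Ribosomal proteins formed the largest list by share, 11.8% ± 0.351 (SD, n = 3) of the summed RPKM. With reads not divided by length the share was 3.59%, below those of the fibroblast markers (5.82%), the matrix glycoproteins and proteoglycans (4.75%) and the fibrillar collagens (4.74%). Of 78 genes 73 reached 100 RPKM in each library, and the median was 578 RPKM. The highest were Rpl41 at 1732, 1802 and 1599 RPKM, Rplp1 at 1372, 1448 and 1289 RPKM, Rps2 at 1079, 1096 and 1049.6 RPKM, Rps12 at 1065, 1018 and 926 RPKM and Rps18 at 967, 959 and 878 RPKM. A few members were far below the rest, among them Rpl30 at 0.411, 0.379 and 0.328 RPKM, Rpl34 at 0.612, 0.199 and 0.510 RPKM and Rps27 at 2.19, 2.05 and 1.70 RPKM. The same was seen for Eno1, an abundant enzyme of glycolysis in most cells, which had 0.0370, 0.153 and 0.0379 RPKM from 2, 8 and 2 reads. Whether reads of these genes were split or dropped between near-identical copies elsewhere in the genome was not tested. Their levels, and those of the other ribosomal proteins, are therefore uncertain. Replicate 3 was the lowest for 75 of 76 detected members, against 30.8% of all detected genes. The median member lay 0.08 below the mean of the libraries on the log2 scale in that replicate.

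Of the 21 glycolysis genes 9 reached 100 RPKM in each library, with a median of 41.8 RPKM over the list. Aldoa had 563, 636 and 602 RPKM, Pkm (pyruvate kinase) 524, 601 and 599 RPKM, Pgk1 406, 502 and 485 RPKM, Gapdh 406, 485 and 477 RPKM, Ldha 394, 481 and 462 RPKM and Tpi1 327, 395 and 367 RPKM. Each of these 6 was lowest in replicate 1, as were 16 of 20 detected members, against 38.6% of all detected genes. None of the 20 reached 1.5-fold. The glucose transporter Slc2a1 had 38.9, 45.1 and 41.4 RPKM and the lactate exporter Slc16a3 33.6, 39.3 and 40.8 RPKM. Nuclear genes of oxidative phosphorylation had a median of 96.9 RPKM, led by Atp5b at 355, 381 and 368 RPKM, Cox4i1 at 326, 343 and 301 RPKM, Cox6b1 at 276, 292 and 274 RPKM and Cox8a at 244, 267 and 219 RPKM. Replicate 2 was the highest for 28 of 31.

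Iron and redox genes, the secretory pathway and the lysosome were among the high lists. The ferritin chains were unequal, with Fth1 at 1180.4, 1159 and 1066 RPKM and a ratio of Ftl1 to Fth1 of 4.05, 4.46 and 4.38. Mt1 and Mt2 had 1283, 1393 and 1203 RPKM and 1142, 1337 and 1216 RPKM. Prdx1, a peroxiredoxin, had 540.1, 520.2 and 481 RPKM and Hmox1 (heme oxygenase-1) 223, 221 and 207 RPKM, while Slc7a11, the cystine transporter, had 0.381, 0.251 and 0.318 RPKM. The list of secretory pathway and chaperone genes was led by Hspa8, a cytosolic chaperone, at 1036, 980.1 and 990.2 RPKM. In the endoplasmic reticulum Calr (calreticulin) had 533, 563 and 543 RPKM, Hsp90b1 413, 462 and 447 RPKM and Hspa5 (BiP) 336, 345 and 334 RPKM. Ddit3 (CHOP), a factor of the unfolded protein response, had 85.4, 106 and 94.6 RPKM. All 18 lysosomal genes were detected, with a median of 219 RPKM, among them Cd63 at 819, 809 and 728 RPKM, Psap at 756, 730.0 and 678 RPKM and Lamp1 at 548, 590.1 and 543 RPKM. Fads2 and Fads1, fatty acid desaturases, led the lipid list with 133, 135 and 145 RPKM and 118, 125 and 130.2 RPKM.

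Transcripts that report on sex and imprinting were read next. Xist, the RNA of the inactive X chromosome, was present in all 3 libraries at 19.9, 15.967 and 18.5 RPKM. The Y-linked genes Ddx3y, Eif2s3y, Kdm5d and Uty were not analysed here, so whether male cells were also present cannot be told from these values. Of the imprinted genes Grb10 had 139, 140.4 and 147 RPKM, Gnas 116, 122 and 121 RPKM, Impact 60.5, 58.7 and 53.7 RPKM and Ndn 53.7, 56.8 and 48.8 RPKM, whereas Igf2, H19 and Dlk1, which are high in fetal tissue, had 1.48, 0.639 and 1.0021 RPKM, 1.0047, 0.690 and 0.627 RPKM and 0.158, 0.123 and 0.0754 RPKM. The nuclear RNAs Malat1 and Neat1 had 239.9, 204 and 173 RPKM and 19.6, 15.3 and 14.4 RPKM, both highest in replicate 1.

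The 3 libraries were closely alike. Across the 11286 detected genes, log2 levels of pairs of libraries had Pearson correlations of 0.994, 0.994 and 0.996 and Spearman correlations of 0.994, 0.994 and 0.996, for replicates 1 and 2, 1 and 3, and 2 and 3. These are correlations across genes, which are not independent replicates. The libraries were not copies of each other, since their read counts differed by more than counting noise, with a median chi-square over detected genes of 2.26, 1.85 and 1.91 and a mean of 25.4, 31.7 and 10.8 for the same pairs. The median gene had a CV of 5.76% over the libraries, and 5% to 95% of the genes ran from 1.46% to 17.8%. The highest library was 1.12-fold over the lowest for the median gene, and 4713 genes (41.8%) lay within 1.1-fold.

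Spread depended on level, as far as counting allowed. In the lowest decile of detected genes, from 1.02 to 2.20 RPKM, the median CV was 9.92% and the CV that read counting alone gives was 8.14%. The counting CV is an expected SD. It lies above the median CV that so few libraries would show from counting error alone, so the values are not shares of each other. In the middle, for genes of 10.1 to 13.9 RPKM, it was 4.97% against 2.99%. It was lowest in decile 9, at 4.53%. The highest decile, from 58.8 RPKM, had a median CV of 5.14% against 1.16% from counting. For abundant genes the libraries thus differed by several times the counting error.

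**Figure D4:**
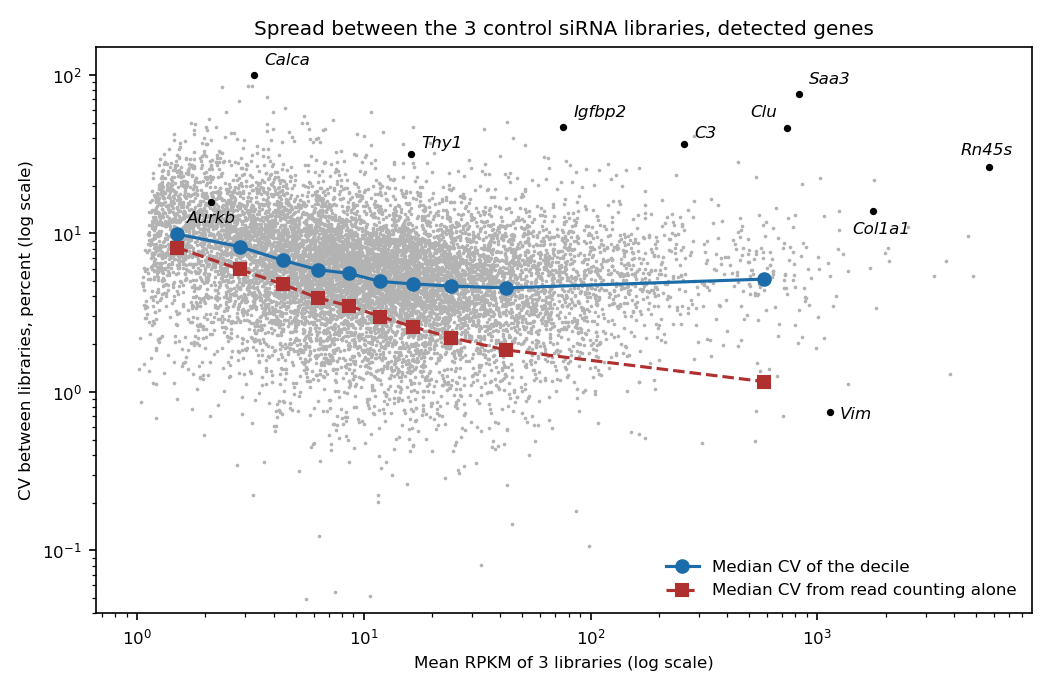
CV between the 3 libraries in percent (log scale) against mean RPKM (log scale), each grey point 1 of 11286 detected genes. Circles give the median CV of each decile of level, which falls from 9.92% in the lowest to 4.53% in the ninth and is 5.14% in the highest, and squares the median CV that counting alone gives, which falls from 8.14% to 1.16%, while Calca, Saa3, Clu, C3 and Rn45s lie far above the circles.

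Of the 326 genes at 1.5-fold or more, 57 reached 2-fold. They were not spread evenly over the libraries. Replicate 1 was the highest in 215 of the 326 genes (66.0%), replicate 2 in 62 and replicate 3 in 49, whereas over all detected genes replicate 1 was the highest in 28.8%, replicate 2 in 38.2% and replicate 3 in 33.0%. The count was 71 without replicate 1, 179 without replicate 2 and 242 without replicate 3. The first component of the 3 libraries held 63.1% of their variance and set replicate 1 apart from replicates 2 and 3. The second held the other 36.9% and set replicate 2 apart from replicate 3. With 3 libraries there are only 2 components, so a large first share is in part fixed. With 3 libraries of 1 group this is a description and no test was made.

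All 20 genes with the largest ratio between libraries, among detected genes with 100 reads or more on average, were highest in replicate 1. Calca, the gene of the peptides calcitonin and CGRP, had 7.01, 1.25 and 1.54 RPKM, 5.60-fold between the highest and the lowest library. Saa3, a serum amyloid A protein of the acute phase, was the most abundant of the 20, at 1550.2, 462 and 473 RPKM from 25062, 7208 and 7462 reads. Clu (clusterin), a secreted chaperone, had 1132, 507 and 577 RPKM. Replicates 2 and 3 were close to each other in each of these 3 genes and replicate 1 stood apart. Col6a5 and Col6a6, further chains of type VI collagen, had 5.03, 1.47 and 1.94 RPKM and 17.9, 6.07 and 8.41 RPKM, and the WNT inhibitors Sfrp2 and Sfrp4 had 8.86, 3.12 and 4.38 RPKM and 2.97, 2.07 and 1.32 RPKM. Ace, the angiotensin-converting enzyme, had 7.67, 2.80 and 2.95 RPKM. H2-Ab1, a chain of MHC class II, had 5.86, 2.94 and 2.46 RPKM and Gpnmb, a membrane glycoprotein, 25.4, 11.006 and 13.2 RPKM. Cd24a had 14.5, 9.29 and 6.31 RPKM and Rarres1 18.1, 7.99 and 10.4 RPKM. The remaining genes of the 20 were Palm3, Eef1a2, Itih5, Igfbp2, Galnt15, Trpc4, Ccl2 and Scara5, with ratios from 2.20 for Scara5 to 2.89 for Palm3.

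Des, Actg2, Cnn1, Lox and Col1a1 showed the reverse and were lowest in replicate 1, as given above. The lists differed in pattern. The median member of the glycolysis list deviated by -0.11, 0.07 and 0.04 from the mean of the libraries on the log2 scale in replicates 1, 2 and 3, and that of the fibrillar collagens by -0.13, -0.02 and 0.12. Complement members deviated by 0.19, -0.19 and -0.04, highest in replicate 1, and mitotic genes by -0.07, -0.10 and 0.19, highest in replicate 3. The median over all detected genes was -0.01, 0.01 and 0.00. Rn45s, Malat1 and the epithelial and mesothelial marker lists were also highest in replicate 1, and their part in these deviations was not tested.

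**Figure D5:**
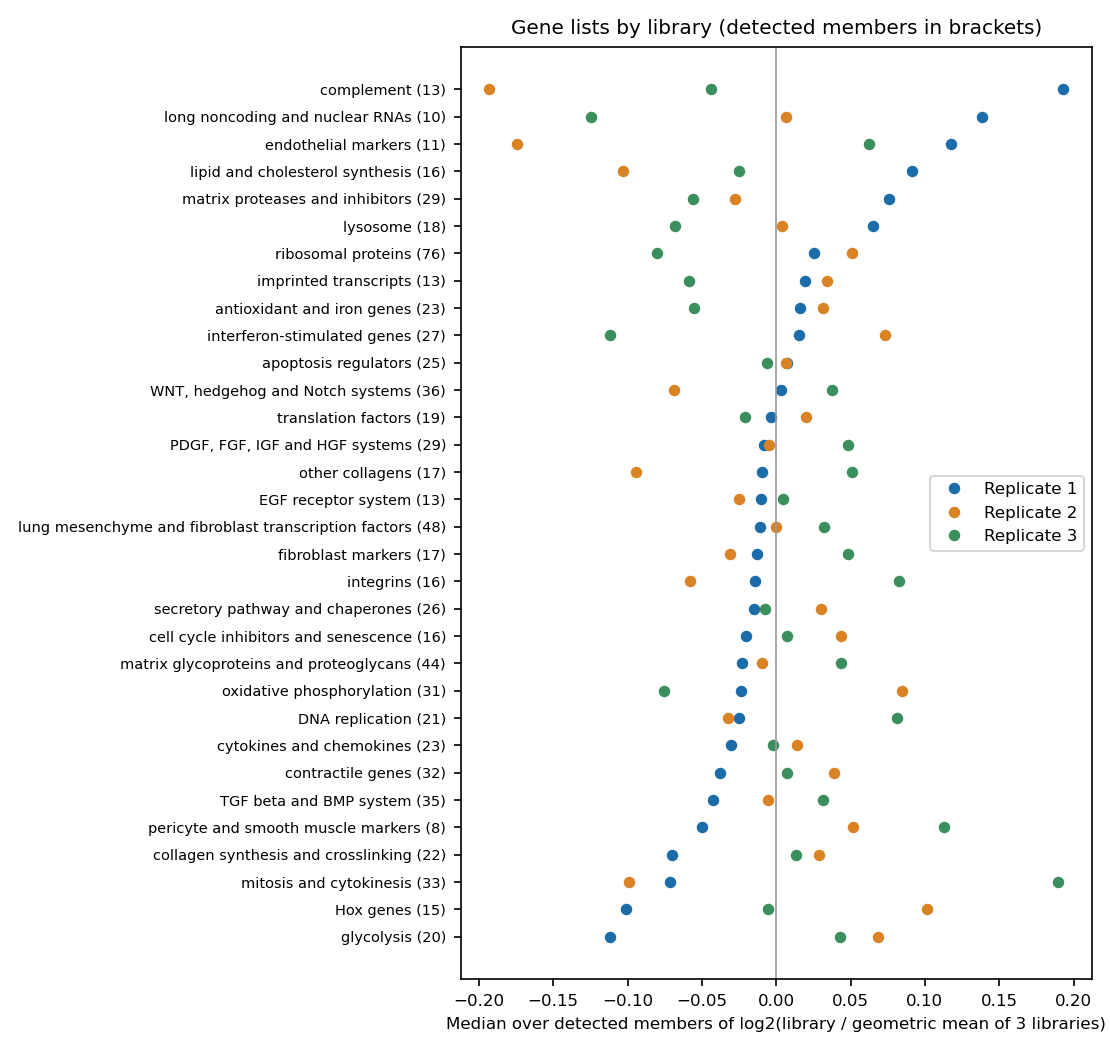
Median over the detected members of each gene list (number in brackets) of the log2 ratio of a library to the geometric mean of the 3 libraries, 1 point per replicate, for lists with 8 or more detected members. Complement genes sit at 0.19 in replicate 1 and -0.19 in replicate 2, mitotic genes at 0.19 in replicate 3, and glycolysis at -0.11 in replicate 1.

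At the other end, the 10 genes with the smallest CV were Srbd1, Etnk1, Map3k10, Psme3, Phldb2, Spata2, Ctdnep1, Cct8, Rexo4 and Fxyd5. Their CVs ran from 0.0494% for Srbd1 to 0.224% for Fxyd5, below the counting CV of each, which was 4.13% for Srbd1 and 0.768% for Phldb2. The genes were selected for this closeness, which is therefore no finding about them. Phldb2, the most abundant of them, had 97.9, 98.1 and 98.0 RPKM and Cct8, a subunit of a chaperonin, had 85.9, 86.0 and 86.2 RPKM. Of genes used as references in other assays, Gapdh had a CV of 9.53% and Actb of 4.04%, against 1.30% for Eef1a1.

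Promoter windows of 300 bases, from 250 before to 50 after the start, were available for 11687 genes (78.6%) of the table, and the first listed window of each gene was used. A pair of features known to divide promoters was read by level, the TATA word TATAAA and the number of CpG dinucleotides. The word was searched on the strand of the gene. Of all 32851 mouse windows 8.32% held it. Among detected genes it was found in 361 of 9022 windows, and by decile of level the share ran between 2.97% and 4.65% in deciles 1 to 9 and was 6.94% in the highest. It was 10.7% among the 500 most abundant genes and 13.9% (10 of 72 windows) among the 100 most abundant. On the other strand the word was found in 3.11% of the windows of detected genes and in 4.17% (3 of 72) of those of the 100 most abundant. Genes of the table that were not detected held it in 6.64%. These shares describe windows and not bound sites, and genes are not independent samples.

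Position narrowed the count. A TATA box usually lies about 30 bases before the start, and only 2 of the 10 words among the 100 most abundant genes began between 40 and 20 bases before it, those of Vim and Ppia. This was 2.78% of the windows of these genes, against 2.35% in the highest decile, 1.08% of detected genes and 1.99% of all windows. In the window of Vim, shown because it carries the word at this place, it begins 32 bases before the start. That of Col3a1 is shown beside it, since it is the most abundant single collagen chain and holds the word 117 bases before the listed start in a window with 0 CpG. The word is in capitals.
Vim (GRCm38.p6, chr2:13574061-13574360, plus strand): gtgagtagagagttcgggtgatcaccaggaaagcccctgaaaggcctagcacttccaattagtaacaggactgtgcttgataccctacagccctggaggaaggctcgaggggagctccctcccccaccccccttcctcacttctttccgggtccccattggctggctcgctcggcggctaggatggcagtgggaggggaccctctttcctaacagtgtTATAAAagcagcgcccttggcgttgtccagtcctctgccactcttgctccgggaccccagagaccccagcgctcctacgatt
Col3a1 (GRCm38.p6, chr1:45311288-45311587, plus strand): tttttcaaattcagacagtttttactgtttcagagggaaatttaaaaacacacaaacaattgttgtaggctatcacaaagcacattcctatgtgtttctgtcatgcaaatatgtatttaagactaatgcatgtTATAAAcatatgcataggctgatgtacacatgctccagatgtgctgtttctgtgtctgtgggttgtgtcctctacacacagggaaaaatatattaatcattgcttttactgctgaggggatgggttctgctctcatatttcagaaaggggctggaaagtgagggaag

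CpG content was compared with the spread between libraries. The windows of the 326 genes that differed by 1.5-fold or more, of which 215 had a window, held a median of 14 CpG, against 22 for the other detected genes, and 7.91% against 3.91% held TATAAA. Since low genes vary more and have fewer CpG, the same was read within levels. In the lower 5 deciles the medians were 14 and 21 CpG, and in the upper 5 deciles 13 and 22. Windows of the complement list had a median of 4 CpG (8 windows), those of ribosomal proteins 22 and those of mitotic genes 24. Few CpG were also seen in lists with 0 or 1 member past 1.5-fold. Windows of Hox genes had a median of 13 CpG, with 1 of 15 detected members past 1.5-fold, and those of fibrillar collagens 14.5, with 0 of 7. Lists of this size cannot be told from the 2.89% of all detected genes. No test was made of these differences. The windows of Saa3, which differed 3.35-fold between libraries, and of Eef1a1, of which the CV was 1.30%, illustrate the range with 5 and 22 CpG, shown as CG in capitals.
Saa3 (GRCm38.p6, chr7:46715627-46715926, minus strand): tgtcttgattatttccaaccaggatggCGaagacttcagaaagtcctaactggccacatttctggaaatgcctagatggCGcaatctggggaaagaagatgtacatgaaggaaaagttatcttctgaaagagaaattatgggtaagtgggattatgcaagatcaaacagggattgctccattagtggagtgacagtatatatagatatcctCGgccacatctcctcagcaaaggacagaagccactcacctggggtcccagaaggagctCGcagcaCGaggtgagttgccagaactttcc
Eef1a1 (GRCm38.p6, chr9:78481675-78481974, minus strand): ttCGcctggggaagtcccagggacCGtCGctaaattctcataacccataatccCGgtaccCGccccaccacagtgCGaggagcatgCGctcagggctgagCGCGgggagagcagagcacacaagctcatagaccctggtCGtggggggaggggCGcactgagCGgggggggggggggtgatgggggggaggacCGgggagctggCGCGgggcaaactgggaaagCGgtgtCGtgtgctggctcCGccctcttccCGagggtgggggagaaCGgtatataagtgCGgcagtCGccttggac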

How the data were processed

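RNA of lung-resident fibroblasts of TGFα mice was sequenced by the authors, and the 3 libraries with control siRNA were read here. Per the submitters' processing notes the tools were TopHat, DESeq, CASAVA 1.8 and bcl2fastq, on mm10. No annotation, strand setting or counting tool is given in the sources used here. For each library the authors deposited levels in RPKM, a unit that the header does not name and that follows from the values. The signal values deposited beside them are the authors' mean over the control siRNA libraries of read counts divided by size factors, and were used only to recover whole reads, all of which came out whole within a tolerance of 0.001 (largest deviation 7.567e-10). The same step returned 100% of read counts simulated with the same formula. That checks the arithmetic only and cannot show that the deposited values are RPKM. Between 0.0145% and 0.0159% of the counted reads lay on genes outside the table. The deposited columns of the authors' comparison (fold changes and p-values), the subset table of that comparison and the Aurkb siRNA columns were not used.

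Genes at 1 RPKM or more in each library were called detected, and the CV and the ratio of the highest to the lowest library were computed with Python 3.11.15, numpy 2.4.6 and pandas 2.3.3. Of the genes, 14853 were matched by gene number to RefSeq (GRCm38.p6), and 22 symbols that a spreadsheet had turned into dates were restored. The genes named were drawn from the 5 markers, the 25 highest genes, up to 6 of the highest members of each of 40 lists, the 20 genes with the largest ratio between libraries and the 10 with the smallest CV (both at 100 reads or more on average). Further genes of the lists, and the promoters printed, were chosen after their values were seen. The members and lists were chosen with earlier results of these data known, and no test was made, since there is 1 group. RPKM compares genes within a library, while reads of short genes and of genes with near-identical copies are less certain. Intervals and limits on counts cover counting error only.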

Additional observations from a re-analysis of the deposited data

How the results depend on the processing

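The number of detected genes, 11286, ran from 10113 at 2 RPKM to 12384 at 1 TPM under the 4 other minimums and scales tried. It lay between 11338 and 11358 without a replicate. Shares depended on the division by length. With reads not divided by length the 10 most abundant genes held 11.7% and the 100 most abundant 26.4%, and the ribosomal proteins held 3.59%, the fibrillar collagens 4.74% and the matrix glycoproteins and proteoglycans 4.75%. Without Rn45s the 10 and the 100 most abundant genes held 8.06% and 27.7%. Of the other 37 lists, 34 moved by more than the SD between libraries with reads not divided by length, 3 without Rn45s and 0 without a replicate. The 0 was fixed in advance, since leaving out 1 of 3 libraries cannot shift a mean by as much as their SD. The number of genes at 1.5-fold or more rose from 326 to 2317 with no minimum level and ran from 71 (without replicate 1) to 242 without a replicate, in part because 2 libraries differ less than 3. It was 335 with median-of-ratios scaling and 235 at 100 reads or more. The median CV ran from 4.57% to 7.15% over these alternatives. The share of TATAAA in the highest decile was 6.54% over all genes of the table and 8.51% with any window of a gene, an alternative chosen after seeing the data. No paired analysis was possible because 1 group was described and nothing was compared. Depth limits low genes, where the CV from counting came closest to the CV between libraries.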
